A study of Mus musculus with 20 samples.

Results

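Livers of 4 mice given 0.3 mg/kg of PFESA-BP2 were compared with livers of 4 control mice, 8 of the 20 libraries of a dose series, and the comparison was read across all genes measured. PFESA-BP2, also called Nafion byproduct 2, is a perfluorinated alkyl substance. The animals were male Balb-C mice of 10 to 12 weeks, gavaged once a day for 7 days with 0, 0.03, 0.3, 3 or 6 mg/kg, with 4 individual mice in each of the 5 groups. The treatment description gives deionized water as the control dose, whereas the control titles carry the word DMSO, and the treated titles name no vehicle, so the vehicle is unsure. No transgene, mutant allele or second agent is named for any group. RNA of whole liver was read by TempO-Seq, in which pairs of short detector probes are ligated where they lie side by side on a transcript and the ligated probes are then counted. A count therefore reports 1 site of a transcript, and genes with several probes were measured several times. Each library is an individual mouse, so the spread within a group is that between animals.

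The liver answers to foreign compounds through nuclear receptors. CAR and PXR switch on cytochrome P450, glutathione transferase and transporter genes, and PPARalpha, the receptor for fatty acids and a known target of many perfluorinated acids, switches on the Cyp4a genes and enzymes of peroxisomal and mitochondrial fatty acid breakdown. The SREBP factors control cholesterol and fatty acid synthesis, with the insulin-induced gene Insig1 among their targets. Interferons control the guanylate-binding proteins, the Ifit genes and antigen presentation in hepatocytes and in the resident immune cells of the liver.

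No probe passed the test at 0.3 mg/kg. Of 14122 probes tested with edgeR's quasi-likelihood test, 0 had an adjusted p under 0.05, which is 0% of the probes, and the smallest adjusted p was 0.200, for Cyp2c66. At an unadjusted p under 0.05 there were 1175 probes, 576 higher and 599 lower at 0.3 mg/kg, where 706.1 would be reached on average if no probe differed. With the probe of the highest mean count standing for each of the 10101 genes, 3.62% of genes were higher and 5.04% were lower at that unadjusted threshold. In 3.17% of genes all 4 treated libraries lay above all 4 controls, and in 3.76% all 4 lay below. The median log2 change over all genes was -0.02, and the central 90% of genes lay between -0.58 and 0.54. Among the 3695 genes with a mean of at least 20 normalized CPM (counts divided by the scaled library size, per 1000000), 7 differed by more than 1 on the log2 scale. Every difference described here is thus one of values, and the words higher and lower carry no call. DESeq2 on the same probes called 5 higher and 23 lower, and the fit of the 8 libraries alone called 3 higher and 1 lower; these are described last. Limma-voom called 0. The 1175 probes became 292 higher and 349 lower without control replicate 1, 346 and 318 without control replicate 2, 319 and 443 without treated replicate 2, and 912 and 881 without control replicate 3.

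**Figure D1:**
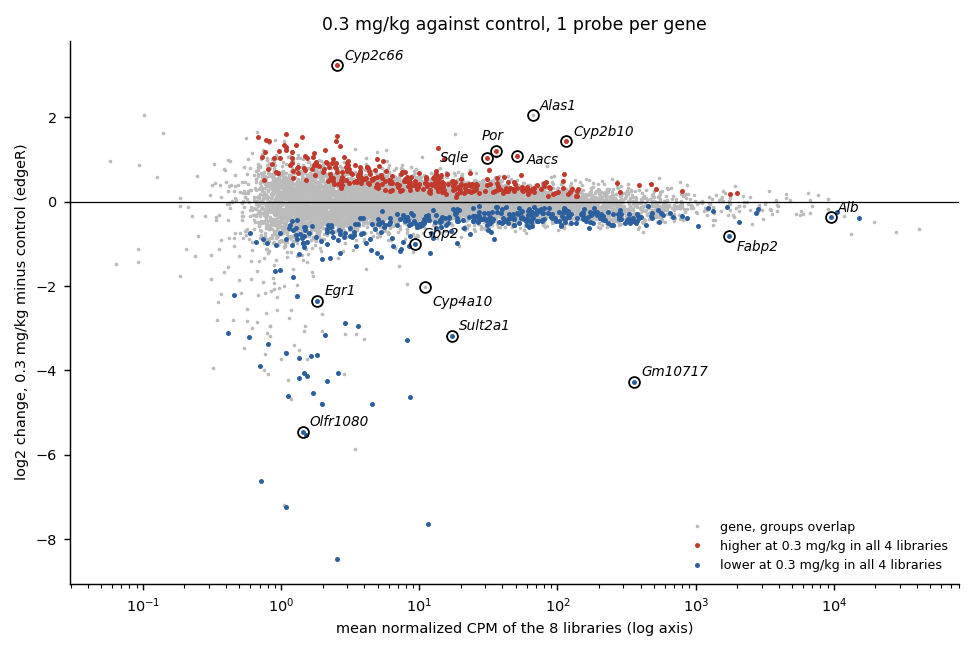
The log2 change from control to 0.3 mg/kg (vertical axis, edgeR) of each of the 10101 genes is plotted against its mean normalized CPM over the 8 libraries (horizontal log axis). Red and blue points are genes whose 4 treated libraries all lay above or all lay below the controls; most genes of at least 20 CPM lie close to 0, and the far negative points are mainly genes of low CPM.

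The 8 libraries held 7123004 to 9890662 counts in the controls and 8836482 to 10310931 at 0.3 mg/kg. Of the hepatocyte markers, 11 of 12 were tested and 10 of these had a mean of at least 20 normalized CPM, with Alb highest. Major urinary protein probes took 16.3% ± 3.70 (SD, n = 4) of the control counts and 12.5% ± 5.04 (SD, n = 4) of the treated counts, with 5.91% in treated replicate 3. That difference of -3.81 percentage points had an exact two-sided permutation p of 0.286, where the smallest p possible is 0.0286. The difference was -1.62 without treated replicate 3, -5.70 without treated replicate 2 and -1.43 for the most counted of these probes alone. The controls were uneven among themselves. Control replicate 2 gave counts for 23418 probes, against 18684 to 19721 in the other 7 libraries. Control replicates 1 and 2 also had lower values of long transcripts: the median deviation of the longest 20% of transcripts minus that of the shortest 20% was -0.26 and -0.15 on the log2 scale, against 0.00 and 0.12 in control replicates 3 and 4 and 0.01, 0.07, 0.11 and 0.12 in the treated libraries. The same difference, taken as the 20% highest in GC minus the 20% lowest, was -0.19, -0.20, 0.07 and -0.08 in the controls. In treated replicates 1 to 4 it was 0.13, 0.27, 0.18 and -0.09. Across 10041 genes with a known transcript the log2 change correlated with log2 transcript length at r = 0.142 and with GC content at r = 0.266. These genes share the same 8 libraries and are not independent. Of the 20% lowest in GC 9.26% were lower and 1.44% higher at an unadjusted p under 0.05. Of the 20% highest in GC 2.04% were lower and 5.93% higher. Of the 200 genes of at least 20 CPM that were lower at 0.3 mg/kg without overlap, control replicate 1 or 2 was the highest control for 86.5%, against 47.9% of all 3695 genes at that level. Of the 94 that were higher without overlap, replicate 1 or 2 was the lowest control for 79.8%, against 42.2%. The controls sat in plate row A, columns 2 to 5, and the treated libraries in row A, columns 10 to 12, and in row B, column 2, so, apart from column 2, plate column and group cannot be told apart. Of these 8 libraries only treated replicate 4 sat in row B. A term for the row thus in effect sets that library aside and is no check on plate position. With that term, 775 probes were higher and 879 lower at an unadjusted p under 0.05, and 0 were called by edgeR. Without treated replicate 4 there were 832 higher and 870 lower.

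The CAR and PXR targets were mostly higher in value. Of 64 listed genes 60 were tested, and 39 of these were higher and 21 lower. At an unadjusted p under 0.05 there were 11 higher and 3 lower, beside 3.62% and 5.04% of all genes. Of the 60, 13 were higher in all 4 treated libraries and 0 lower, beside 3.17% and 3.76%. Their median log2 change was 0.22, beside -0.02 for all genes. Cyp2b10, the P450 that serves as the standard readout of CAR in mouse liver (chr7:25897620-25926624, GRCm38), had 154, 128, 160.2 and 228 normalized CPM at 0.3 mg/kg and 90.6, 74.6, 28.9 and 54.9 in the controls. All 4 treated livers lay above all 4 controls, and control replicate 3 was the lowest of the 8. That was a log2 change of 1.43 (SE 0.39, edgeR adjusted p = 0.417). Its second probe gave 255, 199.96, 270.5 and 289.9 CPM at 0.3 mg/kg and 108, 95.4, 42.4 and 75.4 in the controls, again without overlap, with a log2 change of 1.66 (SE 0.56).

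Por encodes NADPH cytochrome P450 reductase, the enzyme that hands electrons to all microsomal P450s. Its most counted probe gave 44.8, 52.4, 54.3 and 50.5 normalized CPM at 0.3 mg/kg and 17.5, 15.9, 28.7 and 25.4 in the controls, with a log2 change of 1.20 (SE 0.34, edgeR adjusted p = 0.417). The treated values were close together and all above the controls. A second probe of Por, at 14.5, 18.1, 14.8 and 11.1 against 5.24, 5.49, 7.33 and 6.36 CPM, gave a log2 change of 1.26 (SE 0.36), and the third, at under 3 CPM in every library, gave 0.59 (SE 0.49). Alas1, the first and rate-limiting enzyme of haem synthesis, which supplies the P450s with haem, gave 128, 34.0, 116 and 149 normalized CPM at 0.3 mg/kg and 20.2, 11.8, 57.5 and 13.4 in the controls. Treated replicate 2 lay below control replicate 3, so the groups overlapped, and the treated values themselves were widely spread; the test gave a log2 change of 2.05 (SE 0.76, edgeR adjusted p = 0.535). Its second most counted probe overlapped through the same control library and gave a log2 change of 1.77 (SE 0.51).

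Cyp2c66, a P450 of the Cyp2c cluster (chr19:39113898-39187072), had the smallest p of all probes but was barely counted. The raw counts were 35, 14, 58 and 76 at 0.3 mg/kg and 6, 6, 1 and 2 in the controls. The highest control count was below the lowest treated count, and the test gave a log2 change of 3.23 (SE 0.56, edgeR adjusted p = 0.2). Cyp2c55, a further CAR and PXR target, gave 43.9, 43.3, 46.6 and 61.7 normalized CPM at 0.3 mg/kg and 43.6, 22.1, 11.6 and 15.1 in the controls. Control replicate 1 lay inside the treated range and the adjusted p was 0.631. Cyp3a11, the main PXR-induced P450 of mouse liver, showed no separation, with 1671, 2030, 1320 and 1282 normalized CPM at 0.3 mg/kg and 1712, 1428, 1179 and 1943 in the controls and a log2 change of 0.01 (SE 0.54). The Cyp2b, Cyp2c and Cyp3a genes lie in clusters of near-identical copies, and whether a probe also reads a neighbouring copy was not tested.

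Other drug-handling genes were higher without overlap at small sizes. Gstt3, a glutathione transferase, had 42.2, 39.3, 33.5 and 31.9 normalized CPM at 0.3 mg/kg and 26.1, 22.7, 25.3 and 27.7 in the controls (log2 change 0.53, SE 0.20), and Cyp1a2, a P450 of the hepatocytes near the central vein, had 72.8, 61.8, 72.5 and 59.0 normalized CPM at 0.3 mg/kg and 33.6, 36.2, 51.6 and 50.0 in the controls (log2 change 0.63, SE 0.25). Cyp2a4 (49.2 ± 7.59 against 32.9 ± 3.94 normalized CPM) and Cyp3a41a (546 ± 6.65 against 409.6 ± 37.6 normalized CPM, each mean ± SD, n = 4) also did not overlap. Gsta1 gave 58.7, 44.3, 31.6 and 26.1 normalized CPM at 0.3 mg/kg and 24.2, 21.5, 28.5 and 20.0 in the controls, with treated replicate 4 inside the control range, and Gstm3 lay at 2126 ± 59.5 against 1835 ± 199.89 normalized CPM (mean ± SD, n = 4), its lowest treated and highest control values nearly equal. Abcc2, the canalicular transporter of conjugates, had treated values of 258, 260.3, 248 and 215 CPM; control replicate 3, at 219 CPM, overlapped the lowest of them. The other probes of Abcc2 gave log2 changes of -0.14 (SE 0.21) and 0.05 (SE 0.28), against 0.49 (SE 0.21) here. On the lower side of the list stood Cyp2c39 (88.7 ± 19.4 against 134 ± 37.6 normalized CPM) and Cyp3a44, whose raw counts were 3, 4, 3 and 1 at 0.3 mg/kg and 15, 13, 10 and 2 in the controls. In both genes control replicates 1 and 2 were the highest libraries. The receptor CAR itself, Nr1i3, lay at 343 ± 65.1 against 443 ± 116 normalized CPM (mean ± SD, n = 4), with overlapping groups at each of its 4 probes. Leaving out any 1 of the 8 libraries left 8 to 12 members of the list higher at an unadjusted p under 0.05, and without control replicate 1 there was 1 lower in place of 3, as under library totals.

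**Figure D2:**
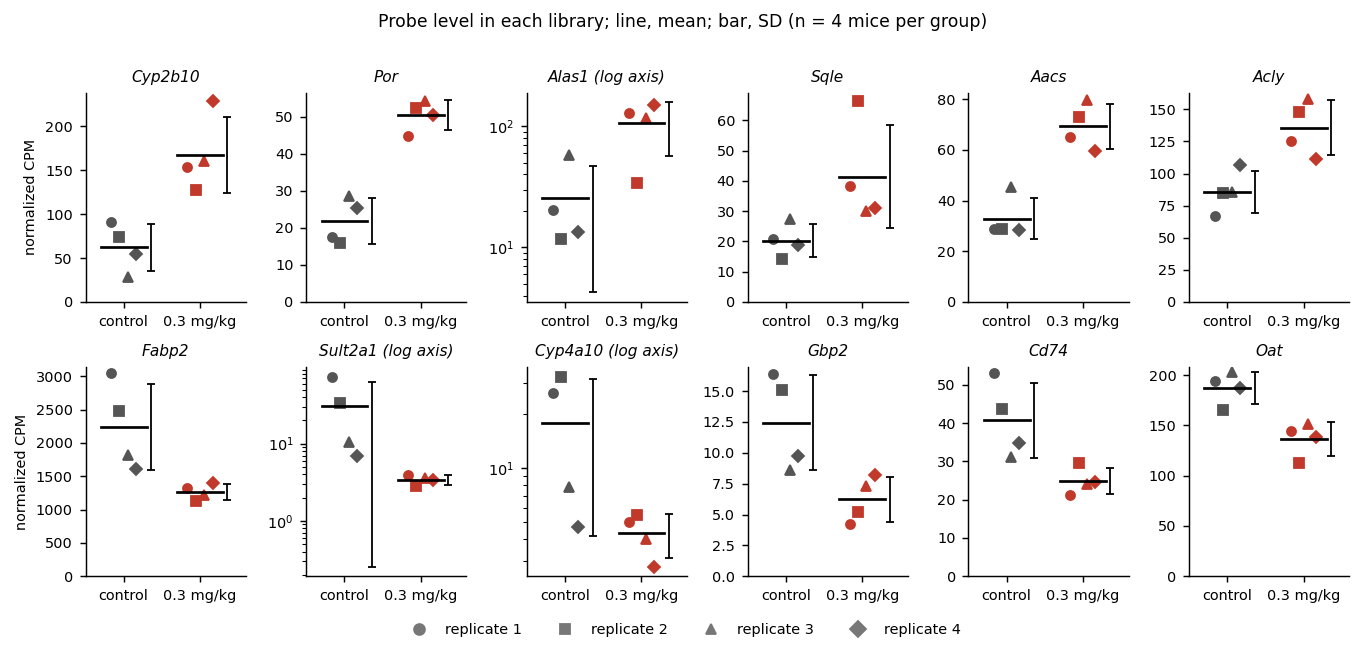
Normalized CPM of 12 genes in each of the 4 control (grey) and 4 treated (red) libraries, with symbols for the replicates, lines for the means and bars for the SD; Alas1, Sult2a1 and Cyp4a10 have log axes. The treated libraries lie above all controls for Cyp2b10, Por, Sqle, Aacs and Acly but not for Alas1, and control replicates 1 and 2 are the highest controls for Fabp2, Sult2a1, Cyp4a10, Gbp2 and Cd74.

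Of the 30 pathway lists, cholesterol synthesis had the largest positive median. Of 30 listed genes 29 were tested, and 25 were higher in value and 4 lower. The median log2 change was 0.38 beside -0.02 for all genes. Of these genes 8 reached an unadjusted p under 0.05 on the higher side and 0 on the lower side, beside 3.62% and 5.04% of all genes, and 4 were higher without overlap, beside 3.17%. With libraries scaled by their totals the 8 became 14. Sqle, squalene epoxidase, the enzyme that oxidizes squalene, had 38.3, 66.5, 29.9 and 31.0 normalized CPM at 0.3 mg/kg and 20.8, 14.2, 27.3 and 18.7 in the controls. All treated livers lay above the controls and replicate 2 stood highest, with a log2 change of 1.03 (SE 0.30, edgeR adjusted p = 0.429); a second probe gave a log2 change of 1.08 (SE 0.50), also without overlap. Cyp51, lanosterol demethylase, and Insig1, the sterol sensor that retains SREBP, had log2 changes of 0.74 (SE 0.27) and 0.60 (SE 0.23); in both, treated replicate 4 lay inside the control range. Insig1 was at 0.39 without treated replicate 2. Hmgcs1, which makes HMG-CoA, gave 246, 414, 270.1 and 239 normalized CPM at 0.3 mg/kg and 179.7, 162, 215 and 243 in the controls, and its values overlapped through control replicate 4 and treated replicate 4. The log2 change was 0.55 (SE 0.26), 0.33 without treated replicate 2, and 0.21 (SE 0.29) at its other probe. Among the 4 members lower in value Ggps1, which makes geranylgeranyl diphosphate, had the smallest p, with 27.6 ± 5.38 against 35.8 ± 4.11 normalized CPM (mean ± SD, n = 4).

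The libraries contributed unequally to the cholesterol genes. Its summed level was 2971, 3986, 2828 and 2836 CPM in the treated livers and 2746, 2306, 2700 and 2858 in the controls, with treated replicate 2 far above the rest and control replicate 4 above 2 of the treated livers. Leaving out treated replicate 2 left 1 member higher at an unadjusted p under 0.05 in place of 8. Without control replicate 1 there were 3 and without control replicate 2 there were 4. Across the libraries left out in turn the count ran from 1 to 10 and the median log2 change from 0.27 to 0.46.

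The promoter of Hmgcs1 is shown because it was the only one of the list's 21 genes with a RefSeq promoter whose 250 bases before the start held the sterol response motif TCACNCCAC on either strand. Counted by gene in the same way, 1.47% of the 7848 tested genes with a RefSeq promoter held it. Counted by promoter, 1.05% of all 32851 RefSeq promoters (build GRCm38.p6) did. The stretch lies at chr13:119690184-119690252 on the plus strand, and the capitals mark the motif, which starts 137 bases before the transcript start.
Hmgcs1: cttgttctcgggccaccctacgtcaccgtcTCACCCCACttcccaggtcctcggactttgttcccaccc
A match is a description of letters, and its absence from the windows of the other 20 genes says only that these letters do not occur there.

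Genes of fatty acid synthesis were higher in value in 23 of 29 tested, with a median log2 change of 0.15; 3 reached an unadjusted p under 0.05 on the higher side and 1 on the lower side, beside 3.62% and 5.04% of all genes, and 6 were higher without overlap, beside 3.17%. With libraries scaled by their totals 10 were higher and 0 lower at that threshold. Aacs, acetoacetyl-CoA synthetase, which feeds ketone bodies into lipid synthesis, had the smallest p of any gene above 20 CPM that was higher at 0.3 mg/kg (chr5:125475814-125517410). It had 65.1, 73.0, 79.8 and 59.6 normalized CPM at 0.3 mg/kg and 28.8, 29.0, 45.2 and 28.6 in the controls. The lowest treated value was above control replicate 3, which stood apart from the other 3 controls, and the test gave a log2 change of 1.08 (SE 0.25, edgeR adjusted p = 0.382). Acly, ATP citrate lyase, the source of cytosolic acetyl-CoA, gave 126, 148, 158 and 111 normalized CPM at 0.3 mg/kg and 66.8, 85.1, 85.3 and 107 in the controls, a log2 change of 0.66 (SE 0.22) without overlap. Acss2, the cytosolic acetyl-CoA synthetase, was counted 43, 50, 39 and 26 times at 0.3 mg/kg and 6, 16, 26 and 12 times in the controls, which did not overlap as normalized values. Its other probe gave a log2 change of 0.15 (SE 0.34), with overlap. Scd1, which desaturates stearate, lay at 40.1 ± 9.71 against 24.0 ± 3.6 normalized CPM (mean ± SD, n = 4) and did not overlap, whereas Fasn, fatty acid synthase, lay at 9.68 ± 1.98 against 5.27 ± 2.11 normalized CPM with control replicate 4 inside the treated range. Pcyt2, of phosphatidylethanolamine synthesis, lay at 37.0 ± 3.99 against 27.5 ± 2.04 normalized CPM without overlap. Cd36, the fatty acid translocase, was on the lower side, with 6.74, 5.69, 6.28 and 6.05 normalized CPM at 0.3 mg/kg and 12.0, 15.9, 7.66 and 5.19 in the controls, and overlapped through control replicate 4. Without treated replicate 4 the list had 7 members higher at an unadjusted p under 0.05 in place of 3, and without control replicate 3 it had 5.

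In bile acid metabolism, Nr0b2, the repressor SHP, was counted 28, 35, 50 and 36 times at 0.3 mg/kg and 9, 18, 4 and 11 times in the controls, without overlap after scaling and with a log2 change of 1.44 (SE 0.38, edgeR adjusted p = 0.417). Cyp7a1, which starts the classical route from cholesterol to bile acids, gave 16.4, 17.3, 20.7 and 23.4 normalized CPM at 0.3 mg/kg and 9.24, 7.6, 4.53 and 10.6 in the controls, also without overlap, with a log2 change of 1.28 (SE 0.82, edgeR adjusted p = 0.689). Cyp8b1, which sets the share of cholic acid, had 142, 201, 177 and 108 normalized CPM at 0.3 mg/kg and 97.2, 92.6, 129 and 124 in the controls, with overlap. Over the list of 31 tested genes the median was 0.08. At an unadjusted p under 0.05 there were 2 higher and 0 lower, beside 3.62% and 5.04% of all genes.

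PPARalpha targets did not share a direction. Of 57 tested, 26 were higher and 31 lower in value, with 3 and 9 at an unadjusted p under 0.05, beside 3.62% and 5.04% of all genes. The median was -0.07 and turned to 0.09 when libraries were scaled by their totals alone, a setting that moved the median of all 14122 probes from 0.00 to 0.16 and the 3 and 9 to 6 and 4. Without control replicate 1 the median was 0.004 and without control replicate 3 it was -0.18. Fabp2, an intestinal-type fatty acid binding protein (chr3:122895072-122899506), had the smallest p of any gene above 20 CPM that was lower at 0.3 mg/kg. It gave 1326, 1132, 1216 and 1399 normalized CPM at 0.3 mg/kg and 3042, 2472, 1817 and 1616 in the controls. The treated values lay within a narrow range below all controls, while control replicates 1 and 2 stood high, and the test gave a log2 change of -0.82 (SE 0.18, edgeR adjusted p = 0.382). Cyp4a10, the fatty acid hydroxylase most used as a PPARalpha readout, had 4.96, 5.48, 4.02 and 2.8 normalized CPM at 0.3 mg/kg and 26.2, 32.5, 7.87 and 4.67 in the controls. Control replicates 1 and 2 were the high libraries and replicate 4 of the controls lay inside the treated range, with a log2 change of -2.03 (SE 0.74, edgeR adjusted p = 0.528). Cyp4a14 was counted 5, 3, 6 and 1 times at 0.3 mg/kg and 24, 19, 5 and 1 times in the controls, with the same 2 controls high. Plin2, which coats lipid droplets, had 689.8, 676, 832 and 701 normalized CPM at 0.3 mg/kg and 1221, 1041, 846 and 722 in the controls, again with control replicates 1 and 2 highest. Without control replicate 1 the list had 2 members lower at an unadjusted p under 0.05 in place of 9, and without control replicate 2 it had 5. The 3 higher became 0 without control replicate 2 or 4 and 1 without treated replicate 2 or 3.

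Other named PPARalpha targets lay on both sides. Ehhadh, the peroxisomal bifunctional enzyme, had 314, 317, 288 and 258 normalized CPM at 0.3 mg/kg and 339.7, 307, 250.5 and 229.9 in the controls, and Acot1, an acyl-CoA thioesterase, had 29.1, 32.9, 24.6 and 21.5 normalized CPM at 0.3 mg/kg and 42.4, 25.8, 21.0 and 24.1 in the controls, with log2 changes of 0.06 (SE 0.18) and -0.07 (SE 0.29). Pex11a, of peroxisome division, lay at 15.9 ± 1.56 against 10.32 ± 2.49 normalized CPM (mean ± SD, n = 4) without overlap, and Cyp4a12a, a male-type hydroxylase, at 367 ± 65.0 against 275 ± 34.3 normalized CPM with overlap. Acsl1, a long-chain acyl-CoA synthetase, had 2 probes, and they differed in size. The more counted one gave 822, 862, 909 and 892 normalized CPM at 0.3 mg/kg and 781, 627, 686 and 817 in the controls (log2 change 0.26, SE 0.17), the other 172, 189.7, 160.4 and 119.5 against 113, 86.4, 102 and 91.0 CPM (log2 change 0.71, SE 0.16); neither overlapped. Ppara itself gave a log2 change of 0.16 (SE 0.17) at its most counted probe and 0.58 (SE 0.20) at the next, and Pparg, at under 5 CPM, -0.83 (SE 0.23). The raw counts of Fgf21, a fasting hormone of the liver, were 6, 17, 16 and 11 at 0.3 mg/kg and 44, 10, 7 and 14 in the controls, a log2 change of -0.93 (SE 0.52) that was -0.09 without control replicate 1.

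Interferon-response genes were mostly lower in value at 0.3 mg/kg: 33 of 39 tested were lower, 9 at an unadjusted p under 0.05 against 0 higher, and 5 did not overlap, beside 5.04% and 3.76% of all genes. The median log2 change was -0.32. The summed level was 906, 890.4, 905 and 1198 CPM in the treated livers and 1339, 1232, 1055 and 1034 in the controls, with treated replicate 4 inside the control range. Ifit2, which binds viral RNA, was counted 27, 22, 38 and 26 times at 0.3 mg/kg and 55, 40, 44 and 35 times in the controls, which gave a log2 change of -0.97 (SE 0.24, edgeR adjusted p = 0.382) and no overlap after scaling. Its other probe gave -0.20 (SE 0.36), with overlap. Gbp2, a guanylate-binding protein that attacks vacuoles of intracellular pathogens, had 4.26, 5.17, 7.29 and 8.18 normalized CPM at 0.3 mg/kg and 16.3, 15.1, 8.63 and 9.74 in the controls, with a log2 change of -0.99 (SE 0.29, edgeR adjusted p = 0.424). Its relatives Gbp5 (log2 change -1.04, SE 0.27) and Gbp2b (log2 change -0.99, SE 0.22) did not overlap either. For these 3 genes, and for Ifit2, control replicates 1 and 2 were the highest libraries. Irf1, an interferon-induced transcription factor, gave 48.4, 59.1, 54.1 and 39.99 normalized CPM at 0.3 mg/kg and 62.7, 73.3, 64.5 and 53.7 in the controls at its most counted probe (log2 change -0.33, SE 0.14) and 9.72, 10.6, 10.4 and 8.74 against 15.2, 15.6, 16.5 and 18.4 at the other, which did not overlap (log2 change -0.74, SE 0.17).

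Of 30 interferon-response genes with a RefSeq promoter, 19 held the motif GAAANNGAA on either strand within the 250 bases before the start. Counted by gene in the same way, 7.57% of the 7848 tested genes with a RefSeq promoter held it. Counted by promoter, 7.13% of all 32851 did. Gbp2 and Gbp5 are shown because they had the smallest p among the list's members that hold it. Capitals mark the match, which lies on the opposite strand to the gene and so reads as the reverse complement. It starts 58 bases before the start of Gbp2 (chr3:142620575-142620643, plus strand) and 164 bases before that of Gbp5 (chr3:142496740-142496808, plus strand), both in build GRCm38.p6 of RefSeq.
Gbp2: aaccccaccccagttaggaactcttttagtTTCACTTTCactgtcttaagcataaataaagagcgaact
Gbp5: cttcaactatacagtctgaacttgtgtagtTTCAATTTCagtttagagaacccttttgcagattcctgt
The windows of both genes hold the motif once.

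Antigen presentation and immune-cell genes were mostly lower in value too. H2-T23, a nonclassical class I molecule, had 247, 265, 194 and 243 normalized CPM at 0.3 mg/kg and 353, 327, 283 and 301 in the controls (log2 change -0.42, SE 0.13), and Cd74, the class II invariant chain, 21.3, 29.5, 24.0 and 24.5 normalized CPM at 0.3 mg/kg and 53.04, 43.8, 31.1 and 34.9 in the controls (log2 change -0.71, SE 0.25), both without overlap. The second probes of H2-T23 and Cd74 overlapped, with log2 changes of -0.29 (SE 0.11) and -0.50 (SE 0.25). H2-Ab1, a class II chain, lay at 4.38 ± 0.694 against 7.52 ± 2.53 normalized CPM (mean ± SD, n = 4). H2-D1, a class I molecule, was on the higher side at 33.5 ± 4.95 against 26.1 ± 4.54 normalized CPM. Of 15 listed genes tested 11 were lower in value and the median was -0.30, with 3 lower and 2 higher at an unadjusted p under 0.05, beside 5.04% and 3.62% of all genes. Without control replicate 4 the median was -0.11, without control replicate 1 there were 2 lower and 0 higher, and without treated replicate 4 there were 5 lower. Of the lymphocyte markers 9 of 23 were tested and all 9 were lower in value, with a median of -0.73. Of them 2 were lower at an unadjusted p under 0.05, beside 5.04% of all genes. Without control replicate 1 the median was -0.43 and the count 1, and without control replicate 3 the count was 5. Their summed level was 19.2, 18.5, 18.6 and 18.0 CPM in the treated livers and 48.5, 33.5, 23.2 and 20.6 in the controls, so the 4 treated livers were alike and control replicate 1 was the highest. Igkc, the immunoglobulin kappa chain of B and plasma cells, had 5.06, 4.03, 4.86 and 4.48 normalized CPM at 0.3 mg/kg and 18.2, 10.27, 5.71 and 6.23 in the controls (log2 change -1.13, SE 0.32, and -0.67 without control replicate 1), and Ptprc, the leukocyte surface protein CD45, 7.04, 7.03, 6.37 and 6.72 normalized CPM at 0.3 mg/kg and 12.98, 9.01, 9.81 and 8.05 in the controls. Coro1a, an actin regulator of leukocytes, was counted 26, 31, 30 and 26 times against 63, 55, 47 and 31 times. Its log2 change was -1.14 (SE 0.25, edgeR adjusted p = 0.382), and -0.77 (SE 0.37) with overlap at its second probe. Gimap6, a lymphocyte GTPase, lay at 24.0 ± 2.92 against 38.4 ± 11.5 normalized CPM without overlap. A further probe of Gimap6 did not overlap either (log2 change -0.68, SE 0.27). Its remaining probes overlapped, with log2 changes of -0.25 (SE 0.24) and -0.44 (SE 0.21).

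Kupffer cell markers had a median of -0.18 over 16 tested genes. Of these, 2 were lower at an unadjusted p under 0.05, beside 5.04% of all genes. Without control replicate 1 the median was -0.10 and the count 1, and the count reached 3 without control replicate 4. Under library totals the median was -0.03. C1qb, a complement chain made by these macrophages, gave 39.2, 38.4, 36.4 and 42.1 normalized CPM at 0.3 mg/kg and 73.5, 63.6, 48.4 and 44.5 in the controls, and Lyz2, lysozyme, 6.05, 6.83, 5.86 and 9.63 normalized CPM at 0.3 mg/kg and 13.6, 15.2, 11.6 and 8.83 in the controls; the sum was 285, 343, 336 and 586 CPM in the treated livers and 556, 458, 383 and 580.1 in the controls, which overlapped. The second probe of C1qb gave a log2 change of -0.26 (SE 0.16), with overlap. In whole liver, fewer cells of a type and less RNA per cell cannot be told apart. The part of these cells in the interferon and antigen-presentation values was not tested. Without control replicate 2 the interferon list had 4 members lower at an unadjusted p under 0.05 in place of 9, as it had with libraries scaled by their totals, and its median ranged from -0.42 to -0.21 as libraries were left out in turn.

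The ribosomal protein genes were lower in value in 52 of 58 tested, with a median log2 change of -0.29; 14 reached an unadjusted p under 0.05 on the lower side and 1 on the higher, and 9 were lower without overlap, beside 5.04%, 3.62% and 3.76% of all genes. Of the shortest 20% of transcripts 8.35% were lower at that threshold. Rpl27 of the large subunit had 287, 270.0, 257 and 298 normalized CPM at 0.3 mg/kg and 498, 399.8, 327 and 342 in the controls (log2 change -0.49, SE 0.15), but its second probe a log2 change of 0.01 (SE 0.21) with overlap. Rpl3 had 284, 275, 272 and 280.0 normalized CPM at 0.3 mg/kg and 448, 400.2, 307 and 332 in the controls (log2 change -0.42, SE 0.13), and Rpsa of the small subunit lay at 317 ± 18.5 against 434 ± 81.9 normalized CPM (mean ± SD, n = 4), with log2 changes of -0.45 (SE 0.16) and, at its second probe, -0.15 (SE 0.13). Rplp2, an acidic stalk protein, was on the higher side at 106 ± 23.2 against 77.5 ± 5.12 normalized CPM. The summed level of the 58 genes was 12052, 11578, 11721 and 12030 CPM in the treated livers and 18033, 15424, 12631 and 12576 in the controls. The treated livers and control replicates 3 and 4 were thus close together, and control replicates 1 and 2 were high. Without control replicate 1 the count of members lower at an unadjusted p under 0.05 was 2 in place of 14 and the median was -0.16. The count was 5 without control replicate 2, 7, 6 and 8 without treated replicates 1, 2 and 3, and 1 with libraries scaled by their totals.

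Genes of the mitochondrial respiratory chain and the proteasome were also mostly lower in value, and both lists had their highest sums in control replicates 1 and 2. Of 45 oxidative phosphorylation genes tested 33 were lower in value, with a median of -0.09 and 5 at an unadjusted p under 0.05, and of 30 proteasome genes 18, with a median of -0.14 and 4, beside 5.04% of all genes and 8.35% of the shortest 20% of transcripts. Neither list had a member lower at that threshold without control replicate 1. Without control replicate 2 they had 1 and 0, and without treated replicate 2 they had 3 and 0. Proteasome genes had 1 without treated replicate 1, and oxidative phosphorylation genes 3 without treated replicate 3 and 9 without control replicate 3. Under library totals alone both medians were positive, at 0.06 and 0.02, with 5 and 2 members higher and 0 lower at that threshold. The first median was -0.06 without control replicate 1 and the second -0.08 without treated replicate 4. Ndufa1, a small subunit of complex I, had 527, 463, 448 and 506 normalized CPM at 0.3 mg/kg and 840.1, 689, 596 and 496 in the controls, with log2 changes of -0.43 (SE 0.15) here and 0.06 (SE 0.25) at its second probe. Uqcrc2, a core protein of complex III, lay at 324 ± 52.3 against 417 ± 50.2 normalized CPM (mean ± SD, n = 4). Psma1, a subunit of the proteasome core, lay at 51.1 ± 6.71 against 70.9 ± 9.01 normalized CPM and Hspe1, the mitochondrial chaperonin HSP10, at 37.6 ± 9.43 against 61.3 ± 12.95 normalized CPM. The median transcript length was 718 bases for the ribosomal protein list, 716 for oxidative phosphorylation and 1227 for the proteasome. The shortest 20% of all transcripts ran to 990.5 bases. The next 20% ran from 991 to 1681 bases, and 7.83% of these were lower at an unadjusted p under 0.05. The median log2 change was -0.08 in the shortest 20% of all transcripts, -0.07 in the next 20% and 0.05 in the longest 20%. With each library's trend on transcript length removed, the ribosomal list had 13 members lower at an unadjusted p under 0.05 and a median of -0.26.

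**Figure D3:**
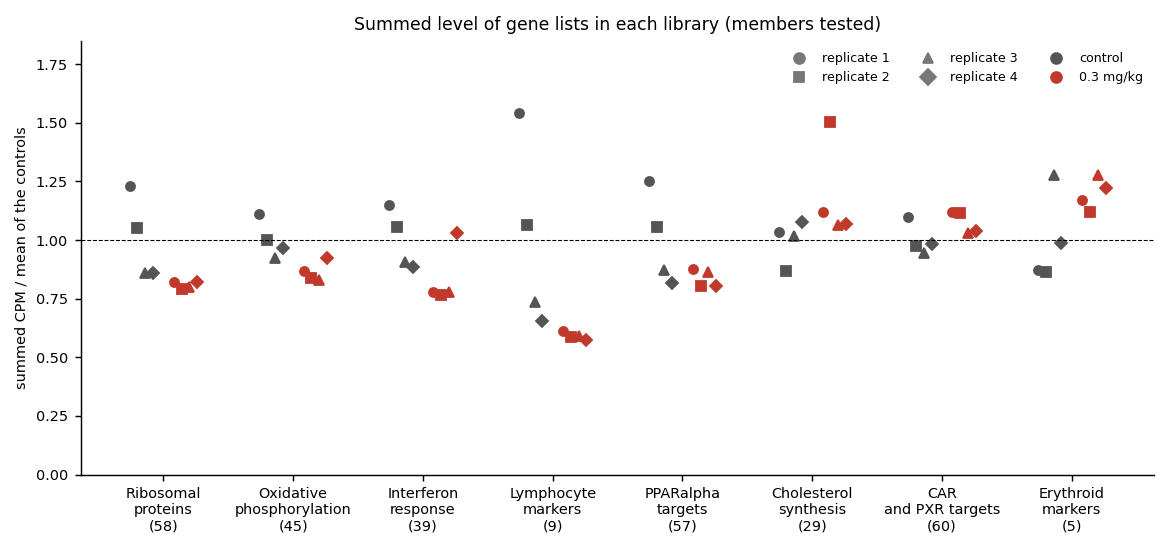
Summed normalized CPM of 8 gene lists in each library, divided by the mean of the 4 controls (vertical axis, from 0); grey is control, red 0.3 mg/kg, symbols are replicates and the number of members tested stands below each list. For ribosomal, lymphocyte and PPARalpha genes control replicates 1 and 2 are above 1 while control replicates 3 and 4 lie near the treated livers, and treated replicate 2 stands apart for cholesterol synthesis.

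Genes that are higher in female than in male mouse liver were lower in value in 14 of 18 tested, with a median of -0.31. At an unadjusted p under 0.05 there were 6 lower and 1 higher, beside 5.04% and 3.62% of all genes. Members without overlap were 1 lower and 2 higher, beside 3.76% and 3.17%. Their summed level went the other way, at a mean of 792 CPM in the treated livers and 725 in the controls, with overlap. Without control replicate 1 there were 3 lower and 0 higher at that p, and without control replicate 4 the median was -0.54. Sult2a1, a steroid sulfotransferase (chr7:13796246-13837409), had 3.97, 2.79, 3.6 and 3.36 normalized CPM at 0.3 mg/kg and 74.0, 33.4, 10.4 and 6.88 in the controls. The 4 treated values were nearly equal and the 4 controls were spread widely, with control replicate 1 far above; the test gave a log2 change of -3.17 (SE 0.68, edgeR adjusted p = 0.382). Sult3a1, its relative, was counted 2, 2, 1 and 1 times at 0.3 mg/kg and 31, 12, 0 and 1 times in the controls. Male-biased and growth hormone genes had a median of -0.03 over 34 tested. Among the major urinary proteins, male pheromone carriers of near-identical sequence, Mup3 had 13926, 13366, 11821 and 13531 normalized CPM at 0.3 mg/kg and 18501, 18736, 16499 and 14688 in the controls, without overlap (log2 change -0.38, SE 0.22), and Mup4 had 36504, 36848, 14703 and 40388 normalized CPM at 0.3 mg/kg and 54990, 38782, 58860 and 49077 in the controls, with treated replicate 3 the lowest. Alb, serum albumin, had 8019, 9551, 6016 and 9428 normalized CPM at 0.3 mg/kg and 11536, 10042, 10565 and 10614 in the controls: all 4 treated livers lay below the controls, with a log2 change of -0.37 (SE 0.24, edgeR adjusted p = 0.691).

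Among amino acid and zonation genes, Oat, the ornithine aminotransferase of hepatocytes around the central vein, had 145, 113, 151 and 138 normalized CPM at 0.3 mg/kg and 194, 165, 203 and 187 in the controls. The groups did not overlap, with a log2 change of -0.45 (SE 0.13, edgeR adjusted p = 0.429). Arg1, arginase of the urea cycle, had 2688, 2015, 2553 and 2683 normalized CPM at 0.3 mg/kg and 3046, 3023, 2878 and 3042 in the controls and Ctsc, a lysosomal protease, 25.4, 27.3, 24.1 and 30.7 normalized CPM at 0.3 mg/kg and 43.7, 34.5, 33.1 and 40.2 in the controls, both without overlap (log2 changes -0.27 and -0.50, SE 0.13 and 0.18). The other probes of Ctsc gave log2 changes of -0.14 (SE 0.45), with overlap, and -1.02 (SE 0.50), without overlap. On the higher side Tat, tyrosine aminotransferase, was counted 64, 72, 65 and 27 times against 14, 12, 37 and 25 times. Of 36 amino acid catabolism genes tested, 24 were higher in value and 12 lower, and the median was 0.04. Of the secreted proteins Apob, the core protein of very low density lipoprotein, had 667, 814, 671 and 428 normalized CPM at 0.3 mg/kg and 345, 388, 572 and 444 in the controls (log2 change 0.56, SE 0.19), C4b, complement component C4, lay at 108 ± 25.8 against 59.8 ± 21.7 normalized CPM and Plg, plasminogen, at 2169 ± 245 against 1663 ± 251.2 normalized CPM (mean ± SD, n = 4). In these 3 genes treated replicate 4 was the lowest treated library and overlapped the controls. The second probe of Plg gave a log2 change of 0.03 (SE 0.19), against 0.38 (SE 0.15) at the first. Tsku, a secreted proteoglycan of the liver, had 21.8, 13.7, 29.3 and 43.9 normalized CPM at 0.3 mg/kg and 4.12, 5.49, 18.3 and 7.27 in the controls, with a log2 change of 1.61 (SE 0.51, edgeR adjusted p = 0.453) and overlap through control replicate 3.

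Immediate-early genes answer quickly to growth signals. Egr1, a transcription factor of this kind, was counted 6, 7, 8 and 3 times at 0.3 mg/kg and 19, 10, 12 and 55 times in the controls; the groups did not overlap, control replicate 4 was the highest and the test gave a log2 change of -2.34 (SE 0.61, edgeR adjusted p = 0.417). Without that library it was -1.49. Gadd45g gave 5.26, 2.9, 2.35 and 2.8 normalized CPM at 0.3 mg/kg and 18.3, 4.22, 24.8 and 4.02 in the controls, with control replicates 1 and 3 high, and Dusp1, a MAP kinase phosphatase, lay at 10.4 ± 1.15 against 13.9 ± 4.04 normalized CPM (mean ± SD, n = 4). Mt2, a metallothionein, was counted 15, 21, 14 and 9 times against 62, 21, 8 and 25 times. Of 34 cell cycle genes tested 0 reached an unadjusted p under 0.05; Pcna, the sliding clamp of DNA replication, lay at 22.7 ± 4.04 against 28.5 ± 1.36 normalized CPM, without overlap. NRF2 targets had a median of -0.01 over 36 tested, and circadian genes of 0.00 over 21. At that threshold 1 NRF2 target was higher and 0 lower, beside 3.62% and 5.04% of all genes.

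**Figure D4:**
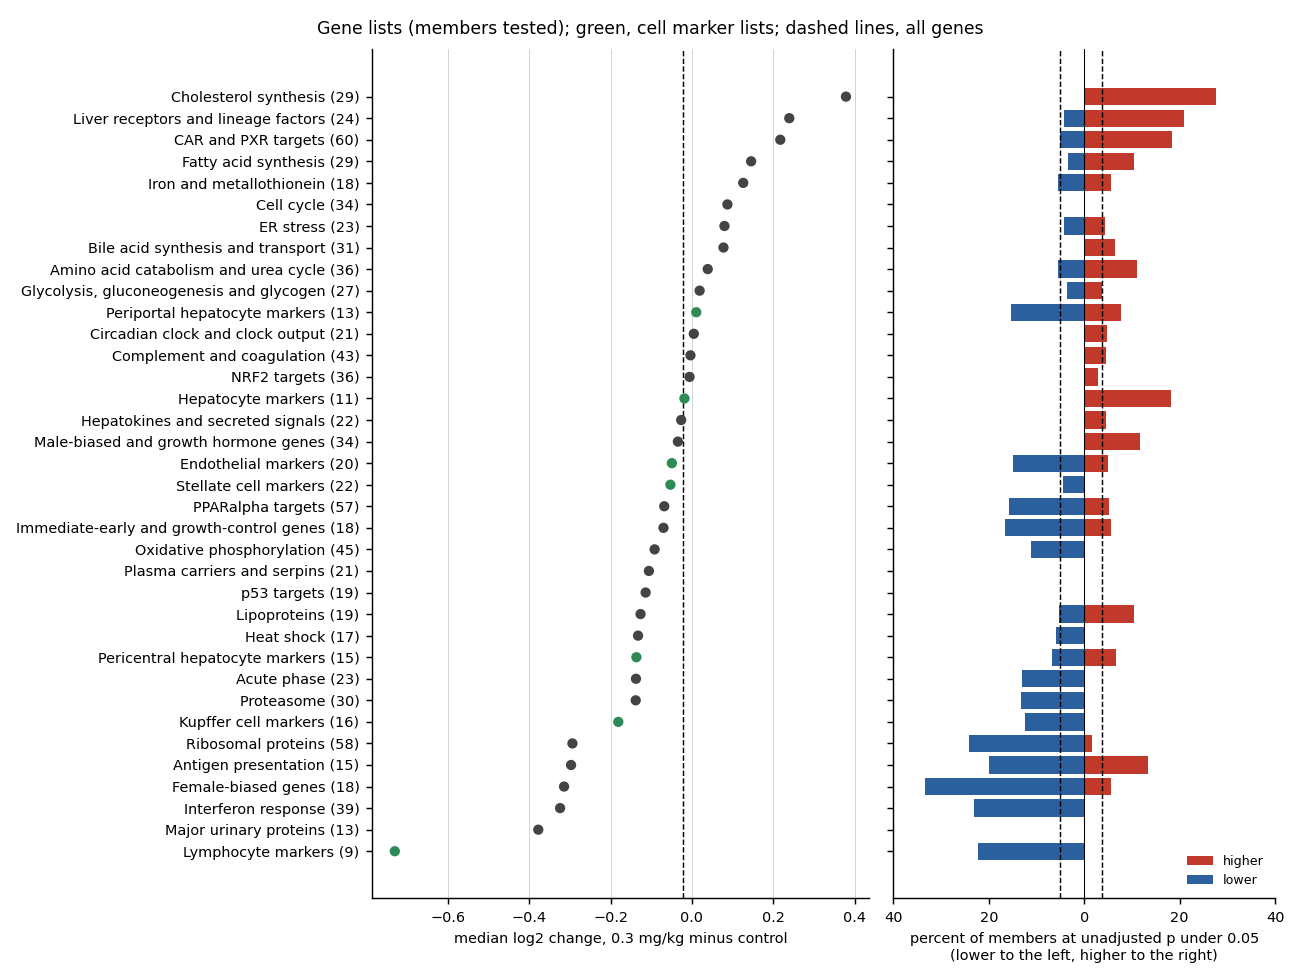
For each gene list with at least 9 members tested, the left panel gives the median log2 change at 0.3 mg/kg and the right panel the percent of members at an unadjusted p under 0.05, lower to the left and higher to the right; dashed lines are all 10101 genes. Cholesterol synthesis is at the top with 0.38 and lymphocyte markers at the bottom with -0.73.

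Several genes outside the lists separated the groups at small sizes. Gabpa, an ETS transcription factor, had 95.9, 112, 94.2 and 80.2 normalized CPM at 0.3 mg/kg and 59.9, 63.3, 78.1 and 76.2 in the controls (log2 change 0.46, SE 0.13), and Ptpn3, a tyrosine phosphatase, 95.7, 82.9, 98.0 and 84.7 normalized CPM at 0.3 mg/kg and 65.0, 65.4, 71.5 and 77.0 in the controls (log2 change 0.37, SE 0.12). The other probes of Ptpn3 overlapped, with log2 changes of 0.05 (SE 0.24) and -0.18 (SE 0.17). Mier3, Adrm1 and Pbrm1 were higher without overlap by 0.39, 0.45 and 0.34 on the log2 scale (SE 0.12, 0.16 and 0.13). These are a corepressor, a proteasome ubiquitin receptor and a chromatin remodelling subunit. The other probe of Pbrm1, at about 2 CPM, gave 0.09 (SE 0.33). Cisd1, an iron-sulfur protein of the mitochondrial outer membrane, had 438, 465, 421 and 488 normalized CPM at 0.3 mg/kg and 755, 651, 512 and 620.1 in the controls (log2 change -0.49, SE 0.14), and Ctsz, a lysosomal protease, 427, 415, 380.2 and 458 normalized CPM at 0.3 mg/kg and 629.5, 571, 502 and 509.6 in the controls (log2 change -0.40, SE 0.12). Smim11, Unc50, Snrpg, Polr2j, Sec13 and Chchd5 were lower without overlap, with log2 changes between -0.76 for Chchd5 and -0.39 for Sec13. In these 6 genes, as in Cisd1 and Ctsz, control replicate 1 was the highest of the 8 libraries. A second probe was tested for 3102 genes. It had the sign of the first in 61.7% of them, in 36 of the 46 such genes that were higher without overlap at 20 CPM or more, and in 52 of the 82 that were lower.

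The neighbouring doses place 0.3 mg/kg in the series. Against 0.03 mg/kg, 0 probes (0%) were called and 331 of 14122 had an unadjusted p under 0.05. The comparisons with the controls and with 0.03 mg/kg share the treated libraries, so values are given side by side. Cyp2b10 lay at 72.4 ± 28.3 normalized CPM (mean ± SD, n = 4) at 0.03 mg/kg, near its control mean of 62.3 ± 26.6, and at 167 ± 43.0 at 0.3 mg/kg. Aacs had the same order, with 32.9 ± 8.19, 36.6 ± 12.7 and 69.4 ± 8.87. Por lay between, at 39.6 ± 8.07 at 0.03 mg/kg, against 21.9 ± 6.17 and 50.5 ± 4.09. Oat was 205 ± 32.1 at 0.03 mg/kg, not lower than its control mean of 187 ± 16.2. For Fabp2 the 0.03 mg/kg mean of 1393 ± 130.4 was nearer to that of 0.3 mg/kg, 1268 ± 118, than to the controls at 2237 ± 649.5, and Igkc, Cd74 and Cyp4a10 showed this too, with 6.27 ± 1.26, 22.7 ± 9.55 and 7.12 ± 3.7.

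Between 3 and 0.3 mg/kg, 1.86% of probes were called higher and 0.977% lower at 3 mg/kg. Of 111 genes followed across the comparisons 18 were called higher and 6 lower. Many of the 111 were named for their difference between 0.3 mg/kg and control, and both comparisons share the 0.3 mg/kg libraries. A move back toward the controls at 3 mg/kg is favoured by that choice, so it is no separate result. At 0.3 mg/kg 3 of the 4 libraries sit in row A, and all 4 at 3 mg/kg sit in row B. A fit that also held the plate row would set the 3 mg/kg libraries against replicate 4 of 0.3 mg/kg alone. It therefore cannot separate row from dose, and the part of the row was not tested. Cyp2c66 rose from 4.57 ± 2.98 to 90.5 ± 27.8 normalized CPM (log2 change of 4.31, SE 0.40, edgeR adjusted p = 5.73e-06) and Cyp2b10 to 581 ± 171 (log2 change of 1.79, SE 0.39, edgeR adjusted p = 0.0199). Gadd45b, a stress-induced gene, rose from 1.78 ± 0.787 to 23.7 ± 5.52 (log2 change of 3.71, SE 0.36, edgeR adjusted p = 5.73e-06). It was not higher in value at 0.3 mg/kg than in controls, with 2.54 ± 1.24 CPM there. Gsta1 (log2 change of 2.60, SE 0.60, edgeR adjusted p = 0.0245) and Cyp2c55 (log2 change of 2.58, SE 0.59, edgeR adjusted p = 0.025) rose as well, as did Gstm3 and Gstt3 (log2 change of 0.81, SE 0.16, edgeR adjusted p = 0.00982 and log2 change of 0.87, SE 0.20, edgeR adjusted p = 0.0211). Cyp4a10 and Cyp4a14, whose means at 0.3 mg/kg were below those of the controls, rose to 67.7 ± 56.0 and 5.001 ± 1.54 CPM (log2 change of 3.96, SE 0.77, edgeR adjusted p = 0.00948, and log2 change of 3.70, SE 0.60, edgeR adjusted p = 0.00222). Sult2a1 (log2 change of 3.15, SE 0.68, edgeR adjusted p = 0.0183) and Ifit2 (log2 change of 0.99, SE 0.24, edgeR adjusted p = 0.0259) rose too and stood near their control means again, at 30.7 ± 10.4 and 5.54 ± 0.731 CPM. Apob (log2 change of -0.95, SE 0.19, edgeR adjusted p = 0.00927), Tat (log2 change of -1.39, SE 0.35, edgeR adjusted p = 0.0342), Ptpn3 (log2 change of -0.44, SE 0.12, edgeR adjusted p = 0.0435), H2-D1, Rplp2 and C77080 fell. Aacs, at 39.99 ± 7.24 CPM at 3 mg/kg, did not pass the test (edgeR adjusted p = 0.0836), nor did Por, at 86.6 ± 29.3 (edgeR adjusted p = 0.202). Among the CAR and PXR targets 14 were called higher at 3 than at 0.3 mg/kg and 0 lower, and among PPARalpha targets 7 and 0. Replicate 4 of the 3 mg/kg group and replicate 4 of the 6 mg/kg group stood apart from their groups; without both, 31 of the 111 genes were called higher and 14 lower. The counts of 18 and 6 became smaller, at 5 to 6 higher and 0 to 2 lower, without treated replicate 1, 2 or 3.

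**Figure D5:**
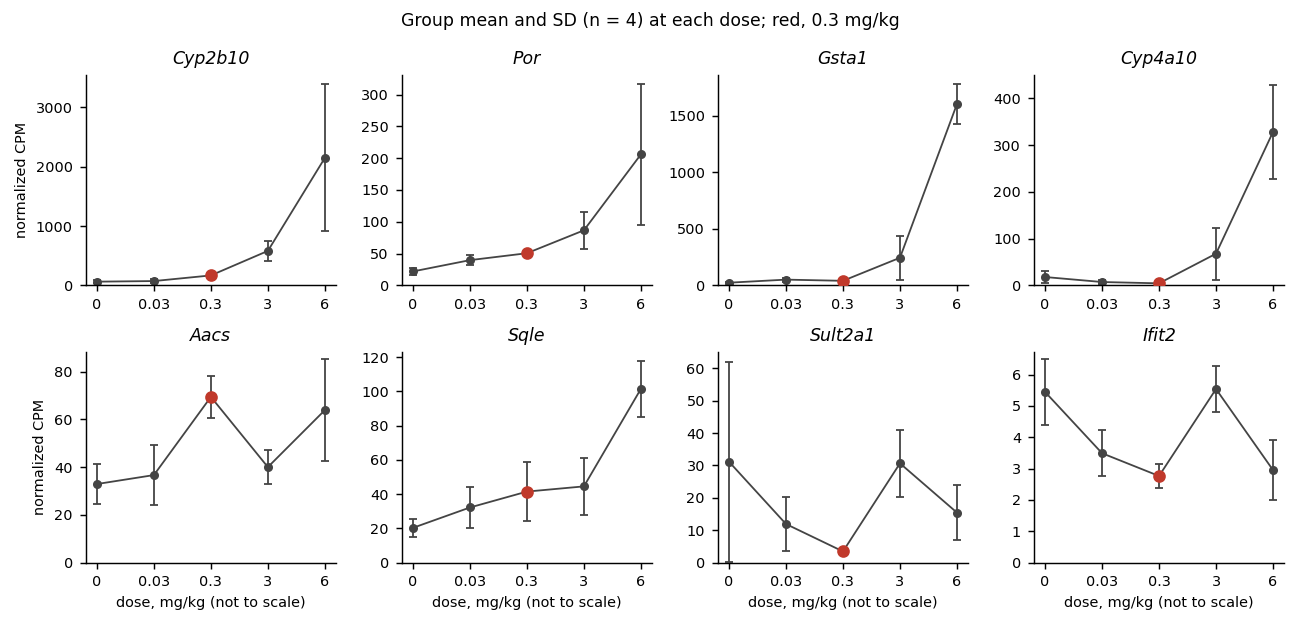
Group means of normalized CPM (vertical axis, from 0) with SD bars (n = 4) for 8 genes at 0, 0.03, 0.3, 3 and 6 mg/kg (horizontal axis, not to scale), with 0.3 mg/kg in red. Cyp2b10, Por, Gsta1 and Cyp4a10 have their highest means at 6 mg/kg. Aacs has its highest mean, 69.4, at 0.3 mg/kg, near its mean of 63.9 (SD 21.4) at 6 mg/kg. Sult2a1 has its lowest mean, 3.43, at 0.3 mg/kg.

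Other models called a few probes. DESeq2's Wald test called 5 probes higher at 0.3 mg/kg, namely Cyp2c66 (adjusted p = 1.73e-05), Aacs (0.029), Plec, a cytoskeletal linker (0.0204), C77080 (0.0494) and the less counted probe of Acsl1 (0.0272). The means of Cyp2c66, Plec and C77080 over the 8 libraries were 2.53, 2.55 and 2.68 normalized CPM. The other probes of Plec gave log2 changes of 0.07 (SE 0.59) and 0.89 (SE 0.32), against 1.57 (SE 0.34) here. Of DESeq2's 23 lower calls 21 had a mean under 20 normalized CPM and 22 did not overlap. In 19 of them control replicate 2 was the highest control. Most of these are vomeronasal and olfactory receptors, which serve the sense of smell, and predicted genes. Such genes come in near-identical copies. Vmn2r16, a pheromone receptor, was counted 11, 112, 23 and 5 times in the controls and 0 times in each treated library, which allows up to 3 counts in each. Olfr1080, an olfactory receptor, was counted 7, 59, 18 and 1 times against 1, 1, 0 and 0 times, and the predicted gene Gm20736 6, 50, 3 and 5 times against 1, 1, 1 and 0 times. Gm10720 had 0.0992, 0.103, 0 and 0.224 normalized CPM at 0.3 mg/kg and 3.24, 87.1, 0.755 and 0.649 in the controls and Gm10717, the one predicted gene of this kind with a high level, 34.1, 81.6, 7.2 and 18.0 normalized CPM at 0.3 mg/kg and 501, 1713, 408 and 91.1 in the controls. Control replicate 2 is also the library with counts for the most probes, and its part in these values was not tested. The lower calls of DESeq2 in genes of known liver or immune function were Fabp2 (0.0204), Sult2a1 (0.00516), Coro1a (0.0204), Gbp2b (0.0208), Nucb2 (0.0403) and a probe of Irf1 (0.0204). Nucb2 had 4.16, 4.14, 2.76 and 5.83 normalized CPM at 0.3 mg/kg and 8.24, 10.6, 7.66 and 8.31 in the controls, without overlap. The edgeR fit of the 8 libraries alone called both main probes of Por and that of Aacs higher, each at an adjusted p of 0.0219, and a probe of Lpar6, a lysophosphatidic acid receptor, lower (0.0375); Lpar6 was singled out after its values were seen. DESeq2 and the fit of 8 libraries shared Aacs.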

How the data were processed

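TempO-Seq libraries of 20 mouse livers were deposited by the authors as raw counts per probe, 1 column per library. The submitters' processing notes name Bowtie and build GRCm38.p5. For Bowtie, version and settings were not given in the sources used here. From these counts edgeR 4.0.16 (R 4.3.3) kept probes by filterByExpr, scaled libraries by TMM and fitted a robust quasi-likelihood model to all 20 libraries with 1 mean per dose. Benjamini-Hochberg adjustment ran over all 14122 probes, with a threshold of 0.05. CPM values are TMM-normalized, and each gene was represented by its most counted probe. Transcript lengths and coordinates are from GENCODE M21. Named were the 15 genes per direction with the smallest p at 20 CPM or more without overlap, up to 3 members per list and direction, 37 sentinels, and genes called by another tool. Some of these genes are not reported here. The comparison, gene lists and rule were chosen with earlier results of these data known. The test was also run on simulated data, and the outcome of that run is not reported here. Alternatives were other scalings, filters, limma 3.58.1 with voom, DESeq2 1.42.0, each library left out, and, added after seeing the data, removal of trends on transcript length and GC content.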

Additional observations from a re-analysis of the deposited data

Results flagged for a closer look

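In 10 groups of 4 libraries 1 library stood apart from the other 3 by more than Dixon's 95% critical share of the group's range. Among the 224 groups examined 11.2 would do so by chance. In the controls, Aacs was high in replicate 3, at 45.2 normalized CPM against 28.6 to 29.0 in the other 3, and Arg1 was low in the same library, at 2878 against 3023 to 3046. Control replicate 2 was high for 3 genes of the vomeronasal and predicted kind: Vmn2r16 at 15.8 against 0.649 to 2.48 CPM, Gm10720 at 87.1 against 0.649 to 3.24, and Gm20736 at 7.04 against 0.323 to 0.749. At 0.3 mg/kg, Mup4 was low in replicate 3, at 14703 against 36504 to 40388, and Plin2 was high there, at 832 against 676 to 701. Gstm3 was low in replicate 1, at 2037 against 2154 to 2160, and Cyp3a41a was high in it, at 556 against 542 to 544. Mier3 was low in replicate 2, at 27.7 against 30.1 to 30.4 CPM. No explanation was tested for these values.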

How the results depend on the processing

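Under 23 alternative settings 2526 values of 111 genes followed were recomputed. Of these 10 changed sign, in 3 genes, and 17 passed the threshold. Calls at 0.3 mg/kg against control were 0 in both directions except with DESeq2 (5 higher, 23 lower), the 8 libraries alone (3 higher, 1 lower) and, as single libraries were left out, 0 to 1 higher (Cyp2c66, without treated replicate 2). Scaling by library totals moved the median of all probes from 0.00 to 0.16 and split the probes at an unadjusted p under 0.05 into 1310 higher and 208 lower. The fewest such probes, 292 higher and 349 lower, came without control replicate 1. There were 1264 and 1291 without replicate 4 of the 3 and 6 mg/kg groups, and 735 and 2170 of 28548 probes with no filter beyond a count above 0. Against 0.03 mg/kg, 1 of these genes was called by DESeq2 and 0 to 1 as libraries were left out.

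Of these genes 18 were called higher for 3 against 0.3 mg/kg. The 18 became 9 without a filter, 11 with limma-voom and 31 without replicate 4 of the 3 and 6 mg/kg groups. They ranged from 5 to 19 as libraries were left out. The 6 called lower became 14 without those 2 libraries, and ranged from 0 to 7. The cause was not tested. A fit with plate row is left out here, because it sets the 3 mg/kg libraries against replicate 4 of 0.3 mg/kg alone.

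Sign changes were small. The PPARalpha median was 0.092 under library totals and 0.026 with plate row, and ranged from -0.18 to 0.035 as libraries were left out. The medians of oxidative phosphorylation and proteasome genes were 0.062 and 0.016 under library totals. Acot1 was at 0.092 under library totals, 0.026 with plate row and -0.19 to 0.20 as libraries were left out. Cyp3a11 was at -0.011 with the length trend removed and -0.14 to 0.14 as libraries were left out, and Ehhadh at -0.012 to 0.17. The cause was not tested. Each library was a separate mouse and the labels name no pairing, so no paired analysis was run. The labels carry no replicate numbers, and those used here follow the order of the plate wells.

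Removing each library's trend on transcript length or GC content left the shares of genes at an unadjusted p under 0.05 at 3.25% higher and 5.24% lower, or 3.31% and 5.49%. The median SE over all probes was 0.27 on the log2 scale, and the low counts of genes such as Cyp2c66 limit the precision further.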
